A study of Mus musculus with 3 samples.

Results

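Pdgfra, Pdgfrb, Ly6a, Ly6c1, Cd34, Cd24a, Thy1, Eng, Cd9 and Cd81 encode cell-surface proteins by which mesenchymal progenitors are sorted from adipose tissue. These 10 genes, of 32285 in the count files, were taken as a list from their use in sorting. They were compared among 3 classes of stromal cell, and all 10 passed the filter on low counts. The data are single-cell RNA sequencing (scRNA-seq) counts from 3 male wild-type C57BL/6J mice aged 8 weeks, with 1 droplet library per mouse. The stromal vascular fraction, which is what remains of digested fat after the adipocytes have floated off, was taken from the inguinal subcutaneous depot. CD31- CD45- cells were sorted from it, which sets aside endothelial cells and leukocytes, so the cells had passed no gate on any of the 10 proteins. There was no treated or mutant group, and the comparison was between classes of cell within each mouse. All 10 are annotated as protein-coding genes. What was counted is mRNA, and nothing here measures the protein at the cell surface.

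Fat stroma holds fibroblast-like cells that can give rise to adipocytes. Interstitial progenitors marked by Dpp4 and Pi16, called adipocyte stem cells (ASCs) in the study, lie upstream of Icam1-expressing preadipocytes (PreAs), while adipocyte regulatory cells (Aregs), marked by Clec11a and F3, restrain adipogenesis. Sorting schemes for these cells rest on a small set of antigens: the PDGF receptors, the glycolipid-anchored proteins Sca-1 (Ly6a), Ly6C (Ly6c1), CD24 (Cd24a) and CD90 (Thy1), the sialomucin CD34, the TGF-beta co-receptor endoglin (Eng), and the tetraspanins CD9 and CD81. None of them belongs to a single cell type, so that their use rests on combinations and on how high each is.

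Cells with more than 500 detected genes and under 5% mitochondrial UMIs (unique molecular identifiers, each a tag on 1 captured mRNA molecule) were kept, and classes were set on raw UMIs of 6 other genes. Progenitors had at least 3 UMIs of Dpp4 and Pi16 together and at most 1 of Icam1 and Fabp4. Preadipocytes had at least 4 of Icam1 and Fabp4 together and at most 1 of Dpp4. Regulatory cells had at least 1 UMI of Clec11a and 1 of Fmo2, and at most 1 of Fabp4 and of Dpp4. In mice 1, 2 and 3 this gave 7399, 3169 and 9273 progenitors, 2278, 1394 and 1889 preadipocytes, and 270, 384 and 404 regulatory cells. Of 34577 kept cells, 7853 met no gate and 264 met more than 1 and were left out of the classes. The names were checked on other genes. All 9 progenitor markers were highest in the progenitor class with no overlap between mice, as were 8 of 10 preadipocyte markers in the preadipocyte class and 5 of 8 regulatory markers in the regulatory class. Among the regulatory markers, Cilp was an exception and was highest in progenitors. A lack of overlap between the mice of 2 classes was common. It held for 43.6% of the 13258 genes tested between preadipocytes and progenitors and 38.4% between regulatory cells and progenitors. Between regulatory cells and preadipocytes it held for 27.4%.

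The libraries held 95899433, 79801002 and 100846072 UMIs, and the kept cells a median of 7392.5, 12192.5 and 6667 UMIs. Between 52 and 81 barcodes were shared by any 2 libraries. Regulatory cells were shallower than the others, with a median of 4945, 10104.5 and 4575 UMIs against 7329, 12052 and 6690 in progenitors and 8083, 12977 and 7296 in preadipocytes. Shares of cells and separation between classes were therefore computed after every cell was thinned at random to 3000 UMIs. This left out 1436 progenitors, 161 preadipocytes and 212 regulatory cells that were shallower. Levels of markers of other cell types were not even, in CPM (counts scaled to the total of each sum). The 8 endothelial markers summed to between 140.3 and 169 CPM in progenitors, 41.1 and 72.1 CPM in preadipocytes, and 21.6 and 27.4 CPM in regulatory cells. In progenitors most of this was Tek, at 154 ± 14.7 CPM against 31.8 ± 5.08 CPM in preadipocytes. Pecam1 and Cdh5, which define endothelium, ran the other way and were at 4.78, 7.0 and 0.663 and at 6.74, 10.0 and 0.516 CPM in the preadipocyte sums of mice 1, 2 and 3, and at most 0.521 and 0.183 CPM in progenitors. The 8 mural markers summed to between 68.4 and 95.6 CPM in preadipocytes, 54.1 and 106 CPM in regulatory cells, and 23.4 and 33.5 CPM in progenitors. Most of this was Abcc9 in preadipocytes and regulatory cells, at 46.2 ± 13.9 and 52.2 ± 22.4 CPM. Rgs5, Notch3 and Myh11 were at 6.98, 12.5 and 7.46 CPM in preadipocytes and 0.931, 2.69 and 2.59 CPM in regulatory cells. Kcnj8 and Cspg4 were higher in regulatory cells than in preadipocytes. The 5 epithelial markers reached 108 CPM in the regulatory cells of mouse 3, and the 8 leukocyte markers summed to at most 25.3 CPM in any class.

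Levels were summed per mouse and class and are given as CPM of that sum, as the mean ± SD of 3 mice. Differences were tested by edgeR's quasi-likelihood test on the 9 sums, with the mouse as a block, and p was adjusted by Benjamini-Hochberg over all 13258 genes tested. Log2 fold changes are given ± their standard error. Between preadipocytes and progenitors, 9 of the 10 genes differed. Pdgfra, Pdgfrb, Thy1, Cd9 and Cd81 were higher in preadipocytes, where 27.2% of all genes were called higher, while Ly6a, Ly6c1, Cd34 and Cd24a were lower, where 29.2% were. In all, 56.4% of genes were called in this contrast, which is the background for the 9. Regulatory cells differed from progenitors in 6 genes, against 42.9% of all genes. Cd9 and Cd81 were higher (background 18.9%) and Ly6c1, Cd34, Cd24a and Thy1 lower (background 24%). Between regulatory cells and preadipocytes 8 genes differed, against 25.7% of all genes. Ly6a, Ly6c1, Cd34, Cd24a, Eng and Cd9 were higher in regulatory cells (background 12.3%) and Pdgfrb and Thy1 lower (background 13.4%). The median log2 fold change over the 10 genes was 0.03, -0.08 and 0.40 in the 3 contrasts in that order, and 0.004, -0.05 and -0.04 over all genes tested. In the same order, the mice of the 2 classes did not overlap for 8, 7 and 8 of the 10 genes, against 43.6%, 38.4% and 27.4% of all genes tested.

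**Figure D1:**
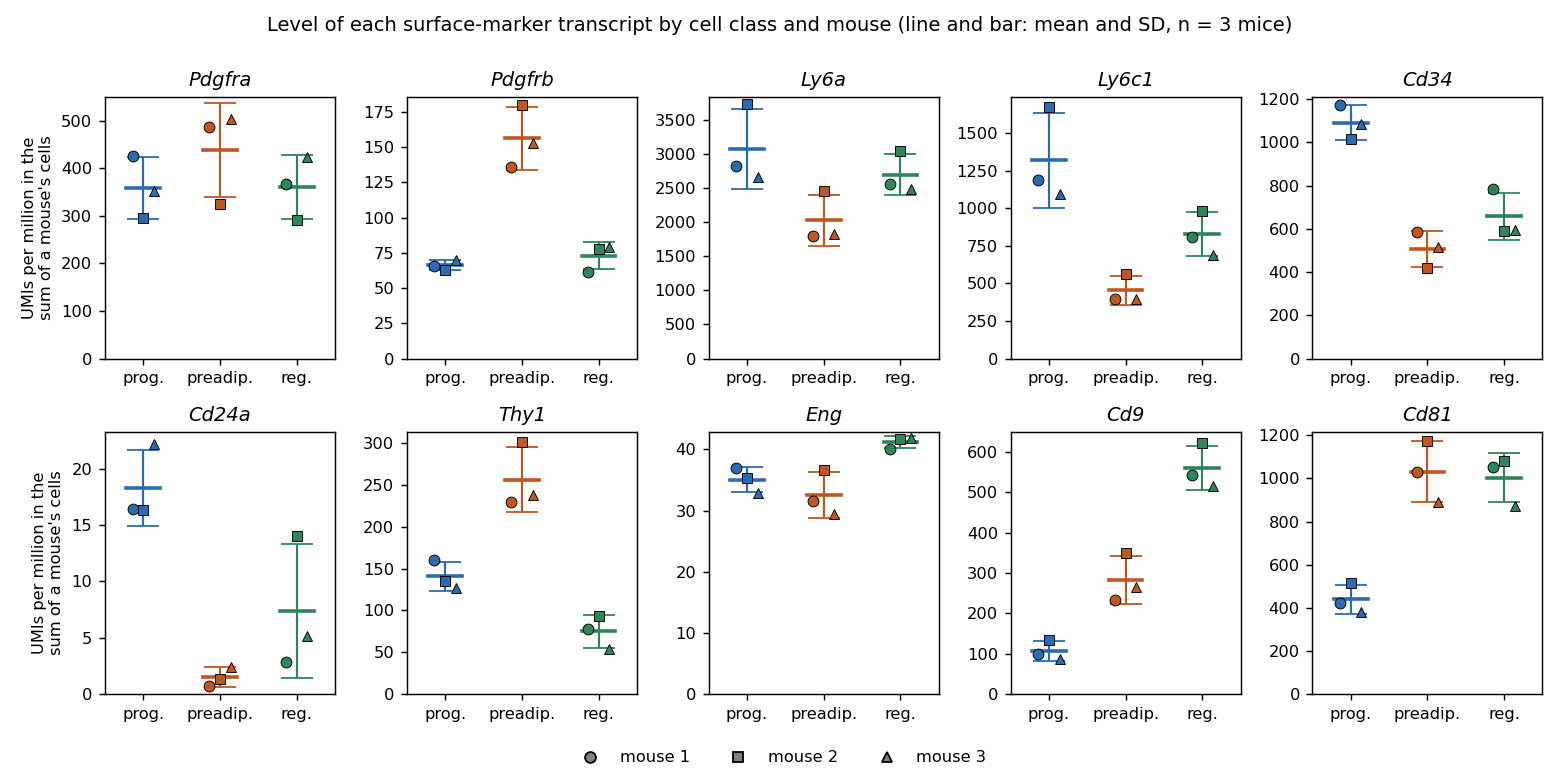
Level of each gene in the sum of each class and mouse, in CPM on a linear axis, with points for the 3 mice and a line and bar for their mean and SD. Ly6c1 and Cd34 stand highest in progenitors, Pdgfrb and Thy1 in preadipocytes and Cd9 in regulatory cells, each without overlap between the classes' mice, and Eng stays between 29.4 and 41.8 CPM throughout.

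**Figure D2:**
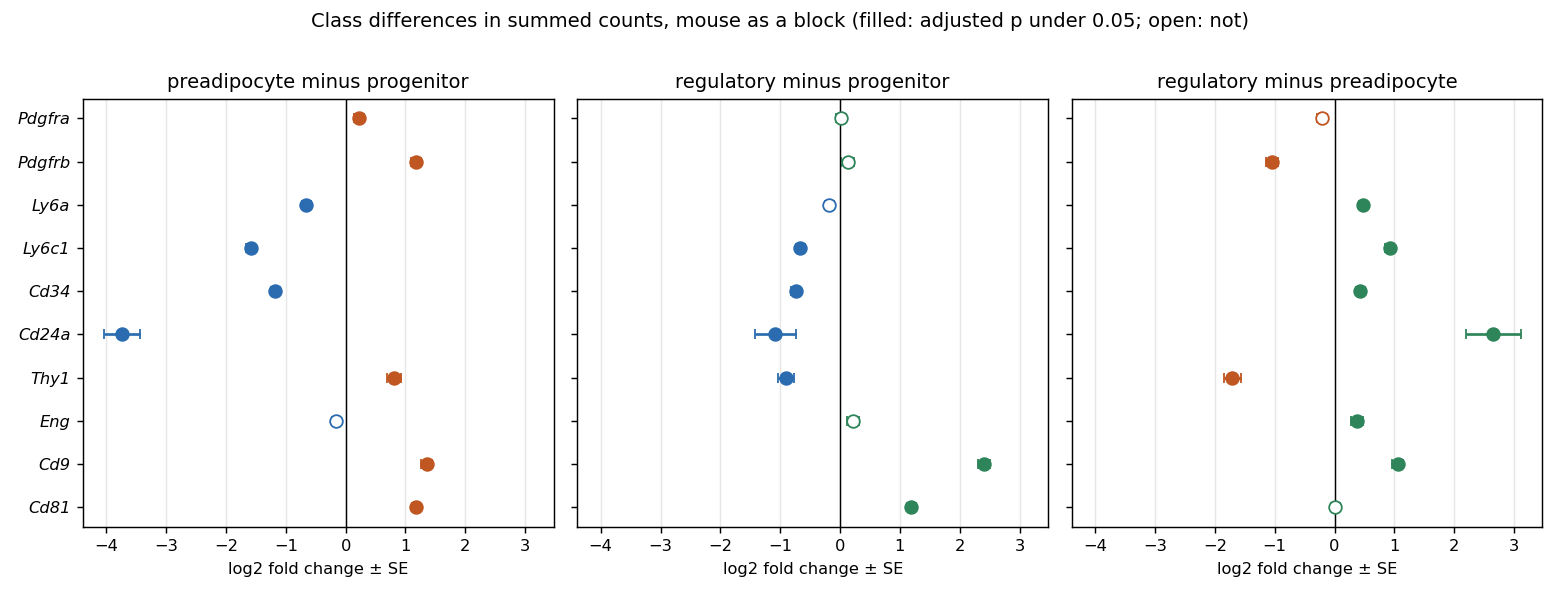
Log2 fold change of each gene in the 3 contrasts from edgeR's quasi-likelihood test, with bars for the standard error and filled points for adjusted p under 0.05. The differences run from -3.74 for Cd24a between preadipocytes and progenitors to 2.65 for the same gene between regulatory cells and preadipocytes, and Cd9 rises to 2.41 between regulatory cells and progenitors.

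The PDGF receptors are receptor tyrosine kinases that bind dimers of platelet-derived growth factor. Pdgfra (ENSMUSG00000029231, chr5:75152292-75198215, plus strand, GRCm38) encodes the alpha receptor and is the usual marker of adipose fibroblasts and progenitors. Pdgfrb (ENSMUSG00000024620) encodes the beta receptor, which is best known from pericytes and mural cells. Pdgfra stood at 426, 297 and 352 CPM in the progenitors of mice 1, 2 and 3, at 487, 324 and 505 CPM in preadipocytes and at 368, 291 and 425 CPM in regulatory cells. All classes held it at a like level, and their ranges overlapped. The preadipocyte mean was 439 ± 99.7 CPM and the progenitor mean 358 ± 64.9 CPM, and the paired difference just passed the test (log2 fold change 0.22 ± 0.08, adjusted p = 0.034, edgeR). Without mouse 3 the value was 0.11 and did not pass (adjusted p = 0.28, edgeR), and over all settings tried the adjusted p ran from 0.013 to 0.4. Regulatory cells were not separated from progenitors (log2 fold change 0.01 ± 0.09, adjusted p = 0.95, edgeR) or from preadipocytes (log2 fold change -0.21 ± 0.09, adjusted p = 0.095, edgeR). The latter difference was called in edgeR with library size only (adjusted p = 0.048), with no filter (adjusted p = 0.01) and without cells with UMIs of the full other-lineage list (adjusted p = 0.035).

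Pdgfrb behaved differently and was highest in 1 class. It stood at 65.9, 62.7 and 69.9 CPM in progenitors, at 136, 180.1 and 153 CPM in preadipocytes and at 61.8, 77.6 and 79.0 CPM in regulatory cells. Every preadipocyte value lay above every other, while progenitors and regulatory cells overlapped. The preadipocyte level was 2.26-fold that of progenitors (log2 fold change 1.18 ± 0.09, adjusted p = 1.94e-07, edgeR), and regulatory cells were lower than preadipocytes (log2 fold change -1.05 ± 0.11, adjusted p = 1.74e-05, edgeR). Between regulatory cells and progenitors no difference was called (log2 fold change 0.13 ± 0.11, adjusted p = 0.37, edgeR). The sum of mural markers was also higher in preadipocytes and regulatory cells than in progenitors, mostly through Abcc9, as given above. Pdgfrb is itself a mural gene. When cells with 2 or more UMIs of a narrower list of other-lineage markers, chosen after the data were seen, were left out, the preadipocyte difference was 1.19. That list took out only 2.46, 3.16 and 1.80% of the preadipocytes of mice 1, 2 and 3. It does not hold the mural genes Abcc9 and Notch3, at 46.2 ± 13.9 and 12.5 ± 2.33 CPM in preadipocytes. Over all settings tried the difference ran from 1.04 to 1.30. The part of mural RNA in it was not tested.

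Ly6a, Ly6c1 and Cd34 were, with Cd24a, the genes that stood highest in progenitors. Ly6a (ENSMUSG00000075602, chr15:74994877-74998031, minus strand) encodes Sca-1, the antigen by which mesenchymal and haematopoietic progenitors of mice are most often enriched. Ly6c1 (ENSMUSG00000079018, chr15:75044018-75048830, minus strand) encodes a form of Ly6C, known from monocytes, endothelium and Ly6C+ fibroblasts. They lie on the same strand of chromosome 15 with a gap of 46.0 kb, in which the GENCODE annotation places 2 genes and none that encodes a protein. Their transcripts share sequence. Of the 30-base words in the last 500 bases of each transcript, 11.4% of those of Ly6c1 occur in Ly6a and 35.6% in Ly6c2, a neighbouring paralogue with 80 UMIs over all kept cells. Reads from the shared stretches could be split or dropped in counting, so the 2 levels are uncertain by an amount the files do not show. The other 8 genes shared 5% of words or more with no other gene.

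Ly6a stood at 2816, 3732 and 2660.4 CPM in progenitors, at 1794, 2454 and 1821 CPM in preadipocytes and at 2562, 3042 and 2476 CPM in regulatory cells. Preadipocytes were lowest in every mouse, and mouse 2 was highest in every class. The level in preadipocytes was 2023 ± 374 CPM against 3069.7 ± 579 CPM in progenitors, a log2 fold change of -0.66 ± 0.07, adjusted p = 5.68e-06 (edgeR). In regulatory cells the gene was higher than in preadipocytes (log2 fold change 0.48 ± 0.07, adjusted p = 0.00033, edgeR) and did not pass the test against progenitors (log2 fold change -0.18 ± 0.07, adjusted p = 0.056, edgeR). That last difference was called by DESeq2 (adjusted p = 0.038) and, in edgeR, with library size only (adjusted p = 0.048), with no filter (adjusted p = 0.0058) and without the deepest cells (adjusted p = 0.047).

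Ly6c1 showed the same order with larger gaps. It stood at 1186, 1676 and 1092 CPM in progenitors, 810.2, 982 and 688 CPM in regulatory cells and 396, 564 and 398 CPM in preadipocytes, with no overlap between any 2 classes. Preadipocytes had the lower level by 1.59 on the log2 scale, so that progenitors stood 3.01-fold above them (log2 fold change -1.59 ± 0.07, adjusted p = 2.77e-09, edgeR). Regulatory cells lay between, below progenitors (log2 fold change -0.67 ± 0.07, adjusted p = 1.46e-05, edgeR) and above preadipocytes (log2 fold change 0.92 ± 0.07, adjusted p = 2.02e-06, edgeR).

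Cd34 (ENSMUSG00000016494, chr1:194938819-194961279, plus strand) encodes a sialomucin found on haematopoietic stem cells, endothelium and fibroblasts of many tissues. It stood at 1174, 1015 and 1085 CPM in progenitors, 784, 591 and 596 CPM in regulatory cells and 584, 419 and 517 CPM in preadipocytes. Every progenitor value lay above every value of the other classes, and the regulatory values lay above all preadipocyte values. Both classes were lower than progenitors (log2 fold change -1.17 ± 0.08, adjusted p = 6.22e-08 for preadipocytes and -0.74 ± 0.08, adjusted p = 9.17e-06 for regulatory cells, edgeR), and regulatory cells were higher than preadipocytes (log2 fold change 0.43 ± 0.08, adjusted p = 0.0016, edgeR).

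Start-site regions of Ly6c1 and Cd34, high in progenitors, are shown beside those of Cd9 and Cd81, high in regulatory cells, because these 4 genes separated regulatory cells from progenitors most, cell by cell. Each is the 250 bases before the transcription start, 5′ to 3′ on the gene's strand, from RefSeq for GRCm38.p6, in which 6 of the 10 genes were matched. Capitals mark matches on either strand to 3 promoter motifs, at any distance from the start within the window. The TATA-box word TATAAA occurs in 12.4% of 32851 such regions. The GC-box word GGGCGG occurs in 32.7% and the CAAT-box word CCAAT in 33.8%.
Ly6c1: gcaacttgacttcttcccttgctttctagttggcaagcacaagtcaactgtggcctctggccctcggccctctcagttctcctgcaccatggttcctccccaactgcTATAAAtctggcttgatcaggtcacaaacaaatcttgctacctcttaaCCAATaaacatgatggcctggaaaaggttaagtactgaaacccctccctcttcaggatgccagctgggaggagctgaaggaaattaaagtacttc
Cd34: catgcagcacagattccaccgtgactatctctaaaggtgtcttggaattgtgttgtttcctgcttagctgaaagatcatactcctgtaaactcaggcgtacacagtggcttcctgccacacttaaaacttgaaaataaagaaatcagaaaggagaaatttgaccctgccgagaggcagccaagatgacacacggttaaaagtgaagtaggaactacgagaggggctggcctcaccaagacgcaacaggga
Cd9: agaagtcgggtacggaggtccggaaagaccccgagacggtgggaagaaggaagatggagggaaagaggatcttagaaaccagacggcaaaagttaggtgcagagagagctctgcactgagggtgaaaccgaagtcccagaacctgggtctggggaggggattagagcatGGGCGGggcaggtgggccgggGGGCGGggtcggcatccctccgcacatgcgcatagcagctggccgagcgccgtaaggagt
Cd81: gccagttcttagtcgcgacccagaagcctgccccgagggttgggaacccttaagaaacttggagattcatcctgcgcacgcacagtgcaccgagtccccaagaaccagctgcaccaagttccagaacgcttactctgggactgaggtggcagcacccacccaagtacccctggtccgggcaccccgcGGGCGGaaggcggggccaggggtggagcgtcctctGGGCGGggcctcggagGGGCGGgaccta

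The Ly6c1 region (chr15:75048838-75049087, minus strand) held 1 TATAAA and 1 CCAAT with 1 CpG. A second RefSeq start of Ly6c1, whose region (chr15:75048664-75048913) is not shown, had none of the 3 motifs and 0 CpGs. The Cd34 region (chr1:194938571-194938820, plus strand) held none of the 3 motifs and 6 CpGs. The Cd9 region (chr6:125494761-125495010, minus strand) held 2 GGGCGG and the Cd81 region (chr7:143052500-143052749, plus strand) 3, each with 16 CpGs, more than 74.6% of such regions. The median region held 6. Base composition was 48.4% and 46.4% G and C for the first pair and 61.6% and 65.6% for the second. These are letters in a window, and no binding or start-site use was measured.

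Cd24a (ENSMUSG00000047139, chr10:43578284-43584265, plus strand) encodes CD24, a small glycolipid-anchored sialoprotein that separates subsets of adipocyte progenitors in sorting schemes. It stood at 16.4, 16.3 and 22.2 CPM in progenitors, from 882, 626 and 1369 UMIs. Preadipocytes had 0.706, 1.37 and 2.43 CPM, from 13, 25 and 33 UMIs, and regulatory cells 2.81, 14.1 and 5.17 CPM, from 4, 52 and 10 UMIs. Preadipocytes had few molecules of it in every mouse, and progenitors were above both other classes without overlap. The preadipocyte level was lower by 3.74 on the log2 scale (log2 fold change -3.74 ± 0.30, adjusted p = 3.99e-07, edgeR), a larger change than in 97.4% of the genes tested. Regulatory cells were lower than progenitors (log2 fold change -1.08 ± 0.34, adjusted p = 0.023, edgeR), but this rested on few molecules. Without mouse 2, where most of the regulatory UMIs were, the log2 fold change was -2.26, and without mouse 3 it was -0.73 and no longer called (adjusted p = 0.15, edgeR). With stricter gates it was -0.61 and not called (adjusted p = 0.34, edgeR), nor was it with cells thinned before gating (adjusted p = 0.074, edgeR). The difference of regulatory cells from preadipocytes (log2 fold change 2.65 ± 0.46, adjusted p = 0.0012, edgeR) was 1.50 without mouse 2 and not called (adjusted p = 0.12, edgeR).

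Thy1 and Eng are, as CD90 and CD105, part of the usual definition of cultured mesenchymal stromal cells. Thy1 (ENSMUSG00000032011, chr9:44043384-44048579, plus strand) encodes a small glycolipid-anchored protein of fibroblasts, neurons and T cells. It stood at 160.4, 135 and 127 CPM in progenitors, 229.9, 301 and 238 CPM in preadipocytes and 77.2, 93.6 and 54.2 CPM in regulatory cells. The classes did not overlap, with preadipocytes highest and regulatory cells lowest. Preadipocytes were 1.75-fold above progenitors (log2 fold change 0.81 ± 0.11, adjusted p = 6.36e-05, edgeR), and regulatory cells were below progenitors (log2 fold change -0.90 ± 0.14, adjusted p = 0.00025, edgeR). Between regulatory cells and preadipocytes the gene had its widest gap (log2 fold change -1.71 ± 0.14, adjusted p = 2.41e-06, edgeR), a change larger than that of 92.4% of genes.

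Eng (ENSMUSG00000026814, chr2:32646595-32682669, plus strand) encodes endoglin, which presents BMP9 and other TGF-beta family ligands to their receptors and is abundant on endothelium. It stood at 37.0, 35.3 and 32.9 CPM in progenitors, 31.6, 36.7 and 29.4 CPM in preadipocytes and 40.0, 41.7 and 41.8 CPM in regulatory cells. Progenitors and preadipocytes overlapped, and the regulatory values were close together above them. No difference was called between preadipocytes and progenitors (log2 fold change -0.16 ± 0.07, adjusted p = 0.072, edgeR) or between regulatory cells and progenitors (log2 fold change 0.22 ± 0.10, adjusted p = 0.099, edgeR). The preadipocyte value was -0.26 and was called (adjusted p = 0.0063, edgeR) when cells with UMIs of the narrower list were left out. It was -0.30 (adjusted p = 0.014, edgeR) by the full list, and was also called with no filter and without mouse 2. Both lists hold markers of several lineages. Endothelial RNA was present in the preadipocyte sums of mice 1 and 2, as given above, and its part in the Eng values was not tested. Regulatory cells were higher than preadipocytes (log2 fold change 0.38 ± 0.10, adjusted p = 0.017, edgeR), a call that was lost without mouse 1 (adjusted p = 0.053, edgeR) and without mouse 3 (adjusted p = 0.15, edgeR). With stricter gates it was lost as well (adjusted p = 0.097, edgeR), and with cells thinned before gating the value turned to -0.02 (adjusted p = 0.98, edgeR). The gene overlaps Fpgs on the opposite strand, which had 2811 UMIs over all kept cells.

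Cd9 and Cd81 encode tetraspanins, membrane proteins that gather integrins and other partners into clusters and are enriched on extracellular vesicles. Cd9 (ENSMUSG00000030342, chr6:125460266-125494791, minus strand) stood at 98.8, 133 and 87.4 CPM in progenitors, 233, 348 and 265 CPM in preadipocytes and 543, 622 and 516 CPM in regulatory cells. The classes rose in that order in every mouse with no overlap. Regulatory cells stood 5.30-fold above progenitors (log2 fold change 2.41 ± 0.09, adjusted p = 1.80e-09, edgeR), a change larger than that of 92.8% of genes, and 2.08-fold above preadipocytes (log2 fold change 1.05 ± 0.09, adjusted p = 3.52e-06, edgeR). Preadipocytes were in turn 2.55-fold above progenitors (log2 fold change 1.35 ± 0.09, adjusted p = 6.03e-08, edgeR).

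Cd81 (ENSMUSG00000037706, chr7:143052739-143067934, plus strand) stood at 419.8, 515 and 382 CPM in progenitors, 1028, 1175 and 890.3 CPM in preadipocytes and 1055, 1081 and 873 CPM in regulatory cells. Progenitors were lowest, and the other classes overlapped. The level was 2.26-fold that of progenitors in preadipocytes (log2 fold change 1.18 ± 0.07, adjusted p = 2.44e-08, edgeR) and 2.29-fold in regulatory cells (log2 fold change 1.19 ± 0.07, adjusted p = 6.74e-08, edgeR). Between preadipocytes and regulatory cells no difference was called (log2 fold change 0.01 ± 0.07, adjusted p = 0.92, edgeR). The gene overlaps R74862 on the opposite strand, which had 1609 UMIs over all kept cells. Cd81 thus set progenitors apart from both other classes, while Cd9 also divided those classes from each other.

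Relatives and partners of the 10 genes were counted as whole lists. Over all genes tested, 27.2% higher and 29.2% lower were called in preadipocytes against progenitors, 18.9% higher and 24% lower in regulatory cells against progenitors, and 12.3% higher and 13.4% lower in regulatory cells against preadipocytes. Of 22 other tetraspanins, 18 were tested, and in preadipocytes against progenitors 12 were higher and 3 lower (median log2 fold change 0.74, against 0.004 over all genes). Against progenitors, regulatory cells had 11 higher and 2 lower (median 0.56), and against preadipocytes 4 higher and 4 lower (median 0.13). Cd63, a tetraspanin of late endosomes and exosomes, was at 1935 ± 312 CPM in preadipocytes and 608 ± 84.5 CPM in progenitors (log2 fold change 1.61 ± 0.07, adjusted p = 9.61e-10, edgeR). Tspan11 stood highest in regulatory cells, at 68.4 ± 2.69 CPM against 1.79 ± 0.266 CPM in progenitors (log2 fold change 5.24 ± 0.17, adjusted p = 5.70e-10, edgeR) and 10.9 ± 3.21 CPM in preadipocytes (log2 fold change 2.70 ± 0.16, adjusted p = 1.75e-07, edgeR). Tspan5 went the other way and was lower in preadipocytes (log2 fold change -1.22 ± 0.08, adjusted p = 4.95e-08, edgeR).

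Of 8 PDGF ligands and partners, 7 were tested. Preadipocytes had 2 higher and 3 lower than progenitors (median 0.09), and regulatory cells 3 higher and 4 lower (median -0.40). Plat, the tissue plasminogen activator, a protease that also activates PDGF-CC, was at 298 ± 49.5 CPM in preadipocytes and 794 ± 118 CPM in progenitors (log2 fold change -1.47 ± 0.06, adjusted p = 1.22e-09, edgeR). The neuropilin Nrp1, a co-receptor for VEGF and semaphorins, was at 150.0 ± 18.6 and 45.1 ± 6.15 CPM (log2 fold change 1.68 ± 0.08, adjusted p = 2.59e-09, edgeR), and it was higher still in regulatory cells than in preadipocytes (log2 fold change 0.62 ± 0.08, adjusted p = 0.00013, edgeR). Regulatory cells had 5 genes of this list higher and 2 lower than preadipocytes (median 0.62).

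Of 11 endoglin partners in TGF-beta and BMP signalling, 10 were tested, and 6 were lower and 2 higher in preadipocytes than in progenitors (median -0.23). Tgfbr2, the type II TGF-beta receptor, was at 173 ± 22 CPM in preadipocytes and 519 ± 77.1 CPM in progenitors (log2 fold change -1.64 ± 0.07, adjusted p = 1.69e-09, edgeR), and the co-receptor betaglycan, Tgfbr3, at 194 ± 43.7 and 547 ± 87.0 CPM (log2 fold change -1.56 ± 0.08, adjusted p = 7.35e-09, edgeR). The activin receptor Acvr2a was higher (log2 fold change 2.23 ± 0.08, adjusted p = 4.42e-10, edgeR). In regulatory cells 1 was higher and 4 lower than in progenitors (median -0.07), and 3 were higher and 2 lower than in preadipocytes (median 0.08). Eng itself, as given above, was called in neither contrast with progenitors.

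Of 20 other Ly6 family genes 9 were tested, with 2 higher and 3 lower in preadipocytes than in progenitors (median 0.01), 2 higher and none lower in regulatory cells (median 0.11), and 5 higher and 2 lower in regulatory cells than in preadipocytes (median 0.48). None met the rule for naming a gene of a list, which asks for a call with 1 sign in all mice and 50 CPM or more in some class. Of the glycolipid anchor pathway, which fixes Ly6a, Ly6c1, Cd24a and Thy1 in the membrane, 18 genes were listed, and all 18 were tested. Preadipocytes had 5 higher and 4 lower than progenitors (median -0.03), regulatory cells 3 higher and 2 lower (median 0.08), and regulatory cells against preadipocytes 1 higher and none lower (median 0.20). That is 9 of 18 called in preadipocytes and 5 of 18 in regulatory cells against progenitors, where 56.4% and 42.9% of all genes were called.

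Of 20 further sorting markers 19 were tested, and 7 were higher and 10 lower in preadipocytes than in progenitors (median -0.52), where 27.2% and 29.2% of all genes were. The fatty acid receptor Cd36 was at 163 ± 74.3 CPM in preadipocytes and 2.73 ± 2.00 CPM in progenitors (log2 fold change 5.89 ± 0.18, adjusted p = 1.20e-10, edgeR). The complement regulator Cd55 was at 96.0 ± 34.9 and 797 ± 301 CPM (log2 fold change -3.11 ± 0.08, adjusted p = 3.67e-11, edgeR), and the adhesion molecule Vcam1 was higher in preadipocytes (log2 fold change 3.08 ± 0.11, adjusted p = 3.06e-10, edgeR). Regulatory cells had 6 higher and 7 lower than progenitors (median -0.28), and 5 higher and 6 lower than preadipocytes (median -0.06). Tissue factor, F3, was at 324 ± 140.0 CPM in regulatory cells and 13.8 ± 1.01 CPM in progenitors (log2 fold change 4.46 ± 0.25, adjusted p = 4.37e-08, edgeR), and endosialin, Cd248, was lower there (log2 fold change -1.74 ± 0.09, adjusted p = 3.00e-08, edgeR). Cd36, Cd55 and F3 were among the markers by which the class names were checked.

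A sort takes single cells, so the share of cells with at least 1 UMI of each gene was set beside the level. After thinning, nearly every cell had Ly6a, with 99.7% ± 0.115 of progenitors, 96.1% ± 1.45 of preadipocytes and 98.1% ± 1.09 of regulatory cells (mean ± SD, n = 3 mice). Ly6c1 was found in 94.8% ± 1.98 of progenitors, 78.1% ± 5.11 of regulatory cells and 58.9% ± 3.32 of preadipocytes, and Cd34 in 94.3% ± 1.38, 80.8% ± 4.93 and 72.9% ± 5.58. The tetraspanins ran the other way. Cd81 was found in 71.4% ± 5.84 of progenitors, 92.1% ± 2.36 of preadipocytes and 91.9% ± 2.80 of regulatory cells, and Cd9 in 20.5% ± 2.74, 47.5% ± 6.10 and 74.6% ± 2.54. No cell type in these libraries is known to lack Cd9 and Cd81, so their shares have no background of their own. For Ly6a and Ly6c1 the reference was 14 cells of a Schwann gate, of which the 11 kept for thinning had a median of 6087 UMIs. After thinning, 6 of 11 cells or 54.5% (95% exact binomial interval 23.4 to 83.3%) of these had Ly6a, and the same number had Ly6c1. All Ly6a shares lay above that interval, as did the progenitor share of Ly6c1, while its preadipocyte and regulatory shares lay within it. For Cd34 the reference was 7 leukocytes, of which the 6 kept for thinning had a median of 4412 UMIs. Cd34 was found in 0 of 6 cells or 0% (95% exact binomial interval 0 to 45.9%), below the share in every class.

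Thy1 was found in 28.4% ± 2.79 of progenitors, 47.8% ± 4.37 of preadipocytes and 17.4% ± 2.67 of regulatory cells, and Pdgfrb in 17.6% ± 0.669, 34.9% ± 4.26 and 15.6% ± 2.44. Pdgfra was found in 62.1% ± 5.39, 67.6% ± 7.81 and 61.4% ± 7.14, and Eng in 9.54% ± 0.479, 8.64% ± 0.225 and 9.96% ± 1.71. In the cells of the Schwann gate Eng was found in 1 of 11 cells or 9.09% (95% exact binomial interval 0.230 to 41.3%). The Eng shares of all classes lay near that and are not read as differing from background. Cd24a was found in 4.54% ± 0.754 of progenitors, 0.405% ± 0.165 of preadipocytes and 1.65% ± 0.875 of regulatory cells. Free RNA in droplets can give a UMI to a cell that does not express the gene. The few cells of an endothelial gate without Tek, 75 before thinning and chosen after the data were seen, gave a reference for genes they should lack. The 26 of them kept for thinning had a median of 6172 UMIs. In them Thy1 was found in 5 of 26 cells or 19.2% (95% exact binomial interval 6.55 to 39.4%), Pdgfrb in 1 of 26 cells or 3.85% (95% exact binomial interval 0.0973 to 19.6%) and Pdgfra in 11 of 26 cells or 42.3% (95% exact binomial interval 23.4 to 63.1%). The share of regulatory cells with Thy1 did not exceed that reference and is not read as above background. The progenitor shares of Thy1, Pdgfrb and Pdgfra and the regulatory shares of Pdgfrb and Pdgfra lay within the intervals of theirs. For Pdgfra and Thy1 the reference chosen beforehand was an endothelial gate that counted Tek, a gene that progenitors also held. In it Pdgfra was found in 339 of 537 cells or 63.1% (95% exact binomial interval 58.9 to 67.2%). Thy1 was found in 184 of 537 cells or 34.3% (95% exact binomial interval 30.3 to 38.4%). Only the preadipocyte shares of the 2 genes lay above these intervals. The cells of this gate resembled progenitors, with Ly6c1 in 95.5%, Cd34 in 92.6%, Cd9 in 22.3% and Cd81 in 69.1%. The progenitor shares were 94.8, 94.3, 20.5 and 71.4%. Thy1, at 34.3% against 28.4%, and Cd24a, at 7.64% against 4.54%, were less alike. The gate therefore cannot serve as a background for progenitors, and nothing is read from this comparison. The reference chosen beforehand for Pdgfrb was the leukocytes, with 0 of 6 cells or 0% (95% exact binomial interval 0 to 45.9%). The Pdgfrb shares of all classes lay within that interval. For Cd24a the reference was 83 cells of a mural gate, of which the 70 kept for thinning had a median of 6833 UMIs. Cd24a was found in 2 of 70 cells or 2.86% (95% exact binomial interval 0.348 to 9.94%). The preadipocyte and regulatory shares lay below that share and are not read as above background. The progenitor share of Cd24a was above it but within its interval. These intervals cover counting error only, and all references are small. The mural and Schwann gates counted genes that the classes also hold, with Abcc9 at 46.2 ± 13.9 CPM and S100b at 25.9 ± 7.76 CPM in preadipocytes. Pdgfra was found in 0 of 6 leukocytes (95% exact binomial interval 0 to 45.9%). It was found in 34 of 70 cells of the mural gate, 5 of 11 of the Schwann gate and, as given, 11 of 26 of the endothelial gate without Tek. Whether these were stromal cells was not tested, so a share near theirs does not show that a class lacks the gene.

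Of the differences in share, the largest were those of Cd9 between regulatory cells and progenitors (54.1 ± 1.29 points), Ly6c1 between preadipocytes and progenitors (-35.9 ± 1.54 points) and Thy1 between regulatory cells and preadipocytes (-30.5 ± 3.69 points). Each had the same sign in 3 of 3 mice, which gives p = 0.25 in an exact two-sided sign-flip permutation test over mice. That is the smallest p it allows with 3 mice, so no difference in share could pass 0.05. Signs differed between mice for Pdgfra and Eng between regulatory cells and progenitors, and for Eng and Cd81 between regulatory cells and preadipocytes. Without thinning the shares were higher, except that of Ly6a in progenitors, and they reached 93.6% ± 1.28 for Cd34 in preadipocytes, 86.8% ± 5.40 in regulatory cells and 99.0% ± 0.502 in progenitors. The order of regulatory cells and preadipocytes in Cd34 was thus the reverse of that at equal depth. The same held for Ly6a, with 98.7% ± 0.443 of preadipocytes and 98.3% ± 1.32 of regulatory cells.

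The mean unthinned shares of the other genes, given for progenitors, preadipocytes and regulatory cells in turn, kept the thinned order except for Eng. Eng was found in 21.7% ± 5.20, 21.4% ± 6.19 and 19.8% ± 5.22 of cells, lowest in regulatory cells, which were highest after thinning. Ly6c1 was found in 98.2% ± 1.10, 80.5% ± 5.84 and 82.4% ± 6.18 of cells. Cd9 was found in 35.7% ± 7.51, 71.7% ± 8.95 and 85.8% ± 6.49. Thy1 was found in 48.1% ± 6.51, 76.7% ± 9.21 and 28.2% ± 9.71. Pdgfrb, Cd81 and Pdgfra had unthinned preadipocyte shares of 66.0% ± 12.3, 98.7% ± 0.627 and 91.7% ± 0.904. Cd24a reached 9.43% ± 1.43 of progenitors.

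Separation of the classes cell by cell was measured by the area under the ROC curve (AUC), the chance that a cell drawn from the first class has more thinned UMIs of the gene than one drawn from the second, ties counting equally to each side. A value of 0.5 is no separation, 1 means always higher and 0 always lower. Preadipocytes were set apart from progenitors most by Ly6c1, with an AUC of 0.176 ± 0.0172, then Cd81 (0.768 ± 0.0115), Cd34 (0.236 ± 0.0140) and Ly6a (0.288 ± 0.0146). Cd9 (0.642 ± 0.0256), Thy1 (0.601 ± 0.0369) and Pdgfrb (0.591 ± 0.0224) separated them less. Cd24a, with the largest log2 fold change of the 10, gave 0.479 ± 0.00322, with UMIs in few cells of any class. Pdgfra (0.545 ± 0.0418) and Eng (0.496 ± 0.00343) were near 0.5.

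Regulatory cells were set apart from progenitors most by Cd9 (0.794 ± 0.00668) and Cd81 (0.763 ± 0.0307), then by Cd34 (0.308 ± 0.0165) and Ly6c1 (0.311 ± 0.0279). From preadipocytes they were set apart most by Cd9 (0.665 ± 0.0160), Thy1 (0.338 ± 0.0205) and Ly6c1 (0.651 ± 0.0183), and by Ly6a (0.628 ± 0.0292) and Pdgfrb (0.400 ± 0.0129), while Cd81 gave 0.495 ± 0.0356 and fell on both sides of 0.5 among the mice. For Cd9, Cd81, Cd34 and Ly6c1 against progenitors, and for Cd9, Thy1, Ly6c1, Ly6a and Pdgfrb against preadipocytes, all 3 mice fell on the same side of 0.5, and the exact two-sided sign-flip permutation test gave its smallest p, 0.25.

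**Figure D3:**
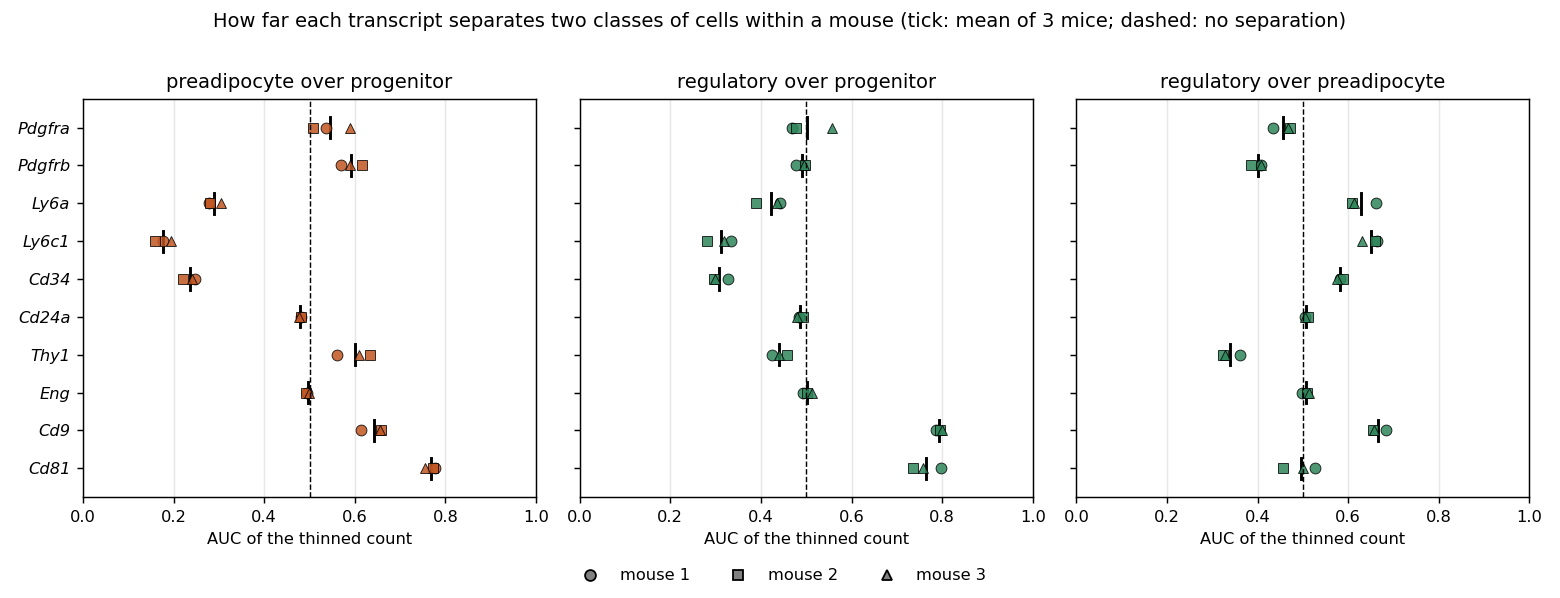
AUC of each gene for each pair of classes on counts thinned to 3000 UMIs, with a point for each of 3 mice, a bar for the mean and a line at 0.5 for no separation. Ly6c1 lies lowest for preadipocytes over progenitors at a mean of 0.176, and Cd9 highest for regulatory cells over progenitors at 0.794.

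Together the 10 genes separated the classes better than any of them did alone. A logistic model on their thinned counts was fitted in 2 mice and scored in the cells of the mouse left out. It gave a held-out AUC of 0.926, 0.933 and 0.923 for preadipocytes over progenitors as mouse 1, 2 or 3 was left out, 0.905, 0.894 and 0.904 for regulatory cells over progenitors, and 0.820, 0.810 and 0.804 for regulatory cells over preadipocytes. Regulatory cells and preadipocytes were thus the hardest pair in every mouse. The genes were not of equal use. Leaving out Ly6c1 cost the first pair 0.0271 of AUC, Cd34 0.0216 and Cd81 0.0212. For the second pair Cd9 cost 0.0663 and Cd81 0.0282, and for the third Thy1 cost 0.0527, Cd9 0.0363 and Pdgfrb 0.0152. Leaving out Eng cost at most 0.000184 in any pair. For Ly6a and Pdgfra, which are among the most used in sorting, the cost was at most 0.00334. These costs are taken with the other genes still in the model. Alone, Ly6a gave an AUC of 0.288 and Pdgfra 0.545 for the first pair.

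**Figure D4:**
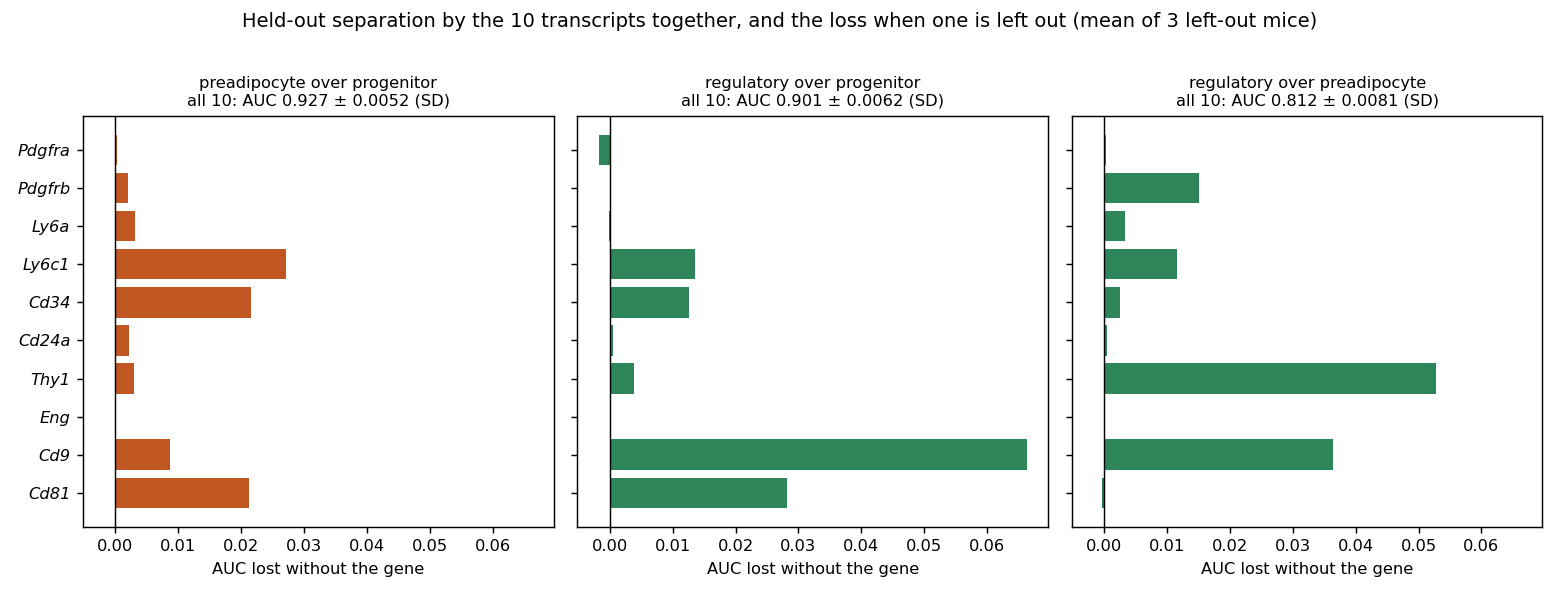
Loss of held-out AUC when each gene is left out of the logistic model on the 10 genes, for each pair of classes, as the mean of 3 left-out mice. The largest losses are those of Cd9 for regulatory cells over progenitors, 0.0663, and of Thy1 for regulatory cells over preadipocytes, 0.0527.

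Combinations in use for sorting were rebuilt from the mRNA, with a cell positive at 1 or more thinned UMIs. Among all kept cells of at least 3000 UMIs, 57.5% ± 6.47 were progenitors, 18.3% ± 4.29 preadipocytes and 3.20% ± 2.09 regulatory cells. The gate Pdgfra+ Ly6a+ Cd34+ took 55.7% of them and left the mix close to where it was, at 60.2% ± 4.30, 15.8% ± 2.87 and 2.81% ± 1.66. Adding Cd24a+ narrowed this to 1.85% of cells, of which 86.7, 71.4 and 85.1% were progenitors in mice 1, 2 and 3 and 2.14% ± 1.69 preadipocytes. The Cd24a- counterpart held 59.5% ± 4.15 progenitors, near the triple gate, and a cell without a Cd24a UMI may still express the gene. Cd24a+ alone gave 80.0% ± 8.64 progenitors.

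Preadipocytes were most of the cells in 1 of these gates. Pdgfrb+ Ly6c1- Cd9- cells were 2.64% of all, and 56.5, 75.5 and 50.5% of them were preadipocytes against 15.8% ± 9.04 progenitors. Pdgfrb+ alone held 28.5% ± 7.52 preadipocytes beside 45.6% ± 8.14 progenitors, and Pdgfrb+ Ly6c1+ 20.5% ± 6.46 beside 54.6% ± 8.25. Regulatory cells were enriched by Cd9+, of which they were 6.82% ± 3.44, and remained a minority beside 35.4% ± 5.13 progenitors. Thy1+ Eng+ cells, 2.90% of all, were 47.7% ± 6.57 progenitors and 25.7% ± 8.58 preadipocytes. These shares are descriptions of mRNA in 3 mice, with no test.

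**Figure D5:**
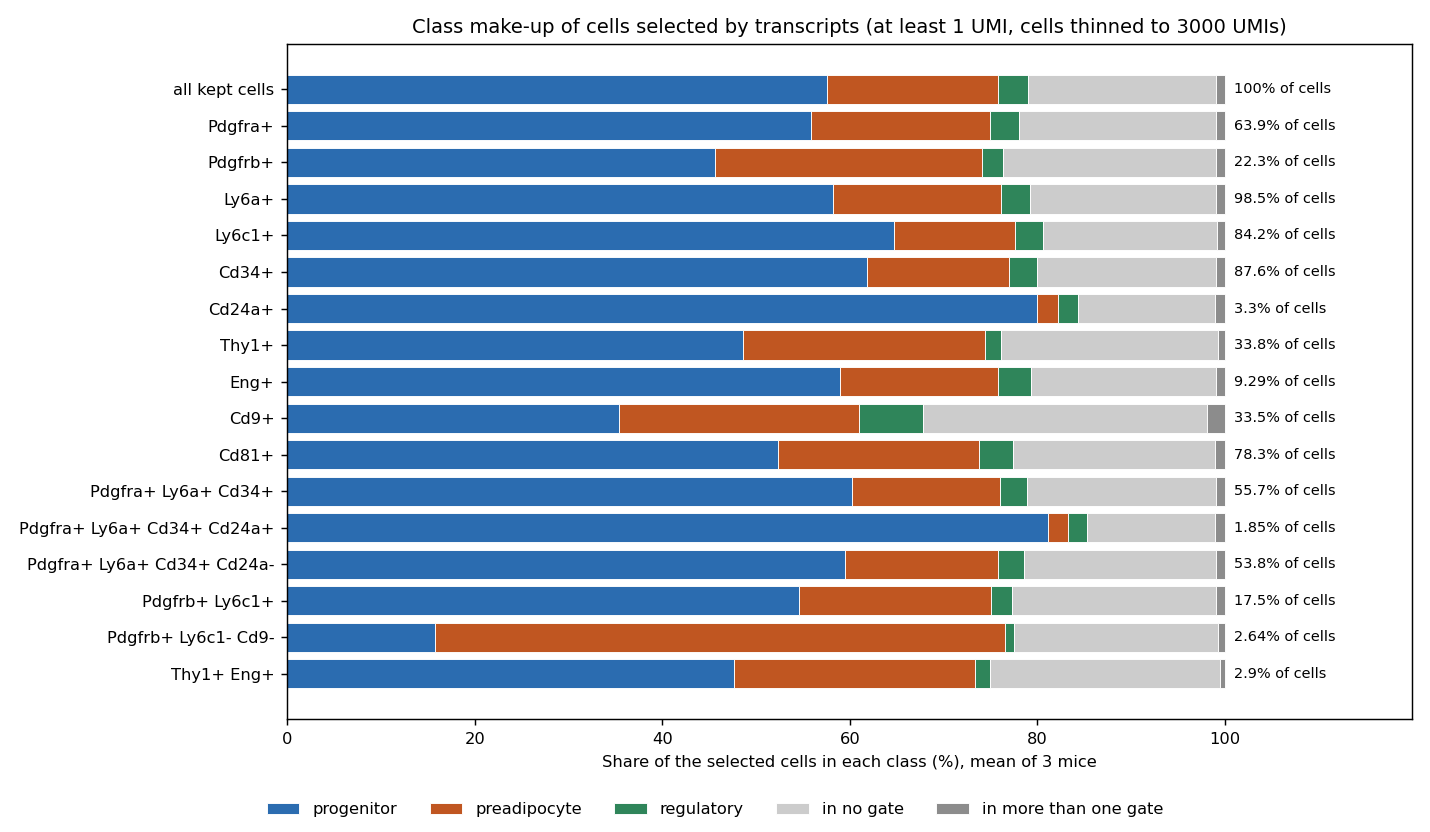
Share of progenitors, preadipocytes and regulatory cells among the cells that each mRNA gate takes, in percent, as the mean of 3 mice. The remaining cells met the gate of no class or of several. Adding Cd24a+ to Pdgfra+ Ly6a+ Cd34+ goes with the highest progenitor share, 81.1%, and Pdgfrb+ Ly6c1- Cd9- with the highest preadipocyte share, 60.8%.

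Across all kept cells, with the classes mixed, Ly6a, Ly6c1 and Cd34 varied together, as did the tetraspanins. Pearson's r of log thinned counts across all kept cells, as the mean of 3 mice, was 0.39 for Ly6a and Ly6c1, 0.26 for Ly6c1 and Cd34 and 0.18 for Ly6a and Cd34. It was 0.19 for Cd9 and Cd81, and negative between the sets, at -0.22 for Ly6c1 and Cd81. All cells of a mouse share a library, and these values are descriptions with no test. Within classes, Ly6a and Ly6c1 gave 0.22 in progenitors, 0.33 in preadipocytes and 0.43 in regulatory cells. These genes share sequence, as given above, and the part of read sharing in this r was not tested. In the same order of classes Ly6c1 and Cd34 gave 0.050, 0.144 and 0.095, and Ly6a and Cd34 0.038, 0.106 and 0.138. Cd9 and Cd81 gave 0.079, 0.010 and 0.117, and Ly6c1 and Cd81 0.013, -0.107 and -0.041. Each of these pairs other than Ly6a and Ly6c1 was thus weaker within every class than across all cells. Ly6a and Ly6c1 were weaker in progenitors and preadipocytes and stronger in regulatory cells, at 0.43 against 0.39. The number of the 10 genes found per thinned cell hardly differed, at 5.03 ± 0.097 in progenitors, 5.27 ± 0.084 in preadipocytes and 5.29 ± 0.012 in regulatory cells.

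At most the 3 genes most like each gene by the same r, of 5985 compared, are named. Further genes also had an r of at least 0.2 in every mouse for Ly6a, Ly6c1, Cd34, Cd9 and Cd81. For Ly6c1 the named genes were the fibronectin gene Fn1 (0.48, 0.45 to 0.54, the mean and the range of 3 mice), the annexin Anxa3 (0.43, 0.38 to 0.48) and the gate gene Pi16 (0.41, 0.35 to 0.47). For Ly6a they were Ly6c1 (0.39, 0.35 to 0.45), the interferon-inducible Ifi27l2a (0.38, 0.34 to 0.44) and Fn1 (0.33, 0.30 to 0.36). Cd34 was nearest to Fn1 (0.37, 0.34 to 0.41), Pi16 (0.34, 0.32 to 0.38) and the IGF-binding protein Igfbp6 (0.34, 0.32 to 0.37). Among the genes named, the tetraspanins shared Igfbp7. Cd9 was nearest to Igfbp7 (0.36, 0.33 to 0.39), gelsolin, Gsn (0.30, 0.28 to 0.32), and biglycan, Bgn (0.28, 0.25 to 0.30), and Cd81 to Igfbp7 (0.37, 0.34 to 0.41), the basement membrane collagen Col15a1 (0.36, 0.35 to 0.38) and Sparcl1 (0.36, 0.34 to 0.39). Thy1 had 1 gene past the limit set for naming, an r of 0.2 in every mouse, namely S100a6 (0.21, 0.20 to 0.22). Pdgfra, Pdgfrb, Cd24a and Eng had none.

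The progenitors with a Cd24a UMI, 281, 127 and 458 in the mice, were set against the 6548, 2979 and 8012 without one, on thinned counts summed per mouse. This comparison was added after the class differences were seen. By edgeR's quasi-likelihood test with the mouse as a block, 165 of 10874 genes differed (1.52%), Cd24a itself left out, with 74 higher (0.681%) and 91 lower (0.837%) in Cd24a+ progenitors. Dmkn and Krtdap, neighbouring secreted products best known from the epidermis, and Sbsn, from the same cluster, were higher. Dmkn was at 290.0 ± 74.1 against 128 ± 15.4 CPM (log2 fold change 1.13 ± 0.07, adjusted p = 1.60e-19, edgeR), Sbsn at 794 ± 92.8 against 472 ± 13.5 CPM (0.72 ± 0.05, adjusted p = 1.09e-17) and Krtdap at 149.9 ± 74.8 against 65.7 ± 17.1 CPM (1.08 ± 0.10, adjusted p = 1.01e-12). Cilp, which encodes a cartilage matrix protein, was at 52.5 ± 14.6 against 17.1 ± 7.02 CPM (1.48 ± 0.17, adjusted p = 3.55e-09). Bmp3, an antagonist of the BMP family, was also higher (1.08 ± 0.14, adjusted p = 8.41e-08), as was Uchl1, a deubiquitinase among the progenitor markers (0.77 ± 0.08, adjusted p = 2.02e-10).

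Genes lower in Cd24a+ progenitors included the basement membrane collagens Col4a2 (-0.99 ± 0.12, adjusted p = 3.89e-09, log2 fold change from edgeR) and Col4a1 (-0.62 ± 0.07, adjusted p = 2.43e-09), Igfbp7 (-0.62 ± 0.08, adjusted p = 2.57e-08) and Gdf10 (-0.87 ± 0.13, adjusted p = 4.97e-06), a TGF-beta family ligand. Gdf10 is on the list of regulatory markers, as is Cilp, which went the other way. None of the other 9 surface genes was called, with Cd34 nearest at -0.16 ± 0.05 (adjusted p = 0.051, edgeR). The gate gene Pi16 was higher (0.17 ± 0.04, adjusted p = 0.0014, edgeR). Of the Cd24a+ progenitors, 1.07, 0.787 and 1.97% in mice 1, 2 and 3 had 2 or more UMIs of the narrower other-lineage list, against 1.10, 0.739 and 0.462% of the others, and their part in these differences was not tested. The count of called genes was 112, 171 and 54 without mouse 1, 2 and 3. Without the mouse as a block edgeR called 0 genes, with 293 at an unadjusted p under 0.05 against 993 with the block, and DESeq2 called 49.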

How the data were processed

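CD31- CD45- stromal vascular cells of 3 mice were profiled by droplet scRNA-seq, and the mice served as biological replicates. With Cell Ranger the authors mapped reads and chose cell barcodes, and they deposited UMI counts per gene and barcode without normalization. The matrix headers name version 4.0.0, and the processing notes name 2.1.1 with build mm10. Doublets were not called, and no columns of per-sample values were left unused (0). Counts were read in Python 3.11.15 with numpy 2.4.6, scipy 1.17.1 and scikit-learn 1.9.0, and summed per mouse and class. The sums were tested in R 4.3.3 with edgeR 4.0.16 (quasi-likelihood test, TMM normalization, filterByExpr, false discovery rate 0.05, mouse as a block). The sums of a mouse come from 1 animal, and their deviations from the class means correlated at r from 0.15 to 0.68 over 13264 genes. On simulated counts the test recovered 180 of 200 changed genes between preadipocytes and progenitors, with 12 false calls among 12929 genes, and 152 of 200 in the comparison by Cd24a, with 6 false calls among 10682 genes. The simulation gave every gene the same spread and the same size of mouse effect. It changed far fewer genes than were called between the classes, so its rates need not hold for these data. For shares and AUC, cells were thinned to 3000 UMIs. The logistic model used log counts with a penalty constant C of 1. The barcodes of each library were its own apart from the shared ones given in the report, and counts of no 2 libraries agreed within sampling noise (chi-square per degree of freedom 63.6 to 225).

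The 10 genes, the gates, the lists and the tests were chosen with earlier results of these data known. Named were the 10 genes, up to 4 genes per list and contrast (largest change among those called, 1 sign in all mice and 50 CPM or more in 1 class), and up to 3 most alike genes per gene (r of at least 0.2 in every mouse). Of the comparison by Cd24a the genes named are among the 10 with the largest change in each direction by the same limits, chosen after its values were seen. Positions are from GENCODE for GRCm38, where all 10 identifiers matched. Alternatives covered other scalings, DESeq2 1.42.0, no filter, no block, stricter gates, other thinning, the mitochondrial limit, leaving out cells above the 95th percentile of UMIs, cells with UMIs of other lineages, and each mouse. The planned list of other-lineage markers removed many stromal cells that express Tek and other genes of it, so a narrower list, and endothelial reference cells chosen without Tek, were added after the data were seen.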

Additional observations from a re-analysis of the deposited data

How the results depend on the processing

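With 3 mice of 1 condition and the mouse as a block, the p-values cover only how class differences vary among these mice. Classes cut from 6 genes on raw UMIs depend on depth. Of 420 log2 fold changes of the 10 genes under another setting, 382 kept direction and side of the threshold, 11 became past it, 15 fell short and 12 turned. The turned values were all small and not called. Between regulatory cells and progenitors, Pdgfra was -0.0450 with no filter, -0.0109 with stricter gates, -0.0682 without cells with UMIs of the full other-lineage list and -0.11 to 0.14 with each mouse left out, Pdgfrb -0.00099 with stricter gates and -0.0500 without cells with UMIs of the full other-lineage list, and Eng -0.10 when cells were thinned before gating. Between regulatory cells and preadipocytes, Eng was -0.0178 when cells were thinned before gating, and Cd81 -0.0385 with library size only, -0.0202 with no filter, -0.0448 with stricter gates and -0.0308 to 0.0715 with each mouse left out. The causes were not tested.

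Without the mouse as a replicate block, 3996, 3130 and 1531 genes were called in the 3 contrasts (preadipocytes and regulatory cells against progenitors, then regulatory cells against preadipocytes), against 7471, 5694 and 3405 with it. Of the 10 genes, 8, 4 and 5 were called. The calls lost in this way were Pdgfra between preadipocytes and progenitors, Ly6c1 and Cd24a between regulatory cells and progenitors, and Ly6a, Cd34 and Eng between regulatory cells and preadipocytes. With cells thinned before gating, 3333 and 1895 genes were called in the contrasts of regulatory cells with progenitors and preadipocytes. With each mouse left out, counts ran from 6117 to 6625, 4173 to 4792 and 2053 to 2800. The comparison by Cd24a called 0 genes without the replicate block, 49 by DESeq2 and 54 to 171 with each mouse left out. Held-out AUCs ran from 0.923 to 0.933, 0.894 to 0.905 and 0.804 to 0.820 as the mouse left out changed.

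Of 270 AUCs under another setting, 186 moved by less than the spread between mice, 82 by more and 2 turned. Of 240 differences in share, 186 moved by less, 52 by more and 2 turned. Leaving out a mouse cannot move a mean by more than the spread between mice. Each setting without a mouse therefore added 30 AUCs and 30 share differences to those that moved by less. These values do not bear on stability. The turned ones were Ly6a and Cd34 between regulatory cells and preadipocytes without thinning, with AUCs of 0.450 and 0.439 and share differences of -0.443 and -6.75 points. Cd24a had 4 to 52 UMIs in the regulatory cells of a mouse.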
